A study of Mus musculus with 10 samples.

Results

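Tachykinins are short neuropeptides, and the present data cover the genes of their precursors and of the receptor for substance P in the mouse urinary bladder. All probes named Tac1, Tac2 or Tacr1 were taken, which gave 3 probes, 1 per gene, of 5030 on the array, which names 4605 genes. All 3 were among the 4829 probes whose intensities could be used. Clontech Atlas plastic arrays were read by radioactive label, and each was hybridized with cDNA from a pool of 8 bladders of female mice.

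Substance P, written SP, is cut from the precursor that Tac1 encodes and is released by sensory nerve endings, where it widens vessels, makes them leak and activates mast cells and smooth muscle. Tac2 encodes the precursor of neurokinin B, a related peptide best known from hypothalamic neurons. Tacr1 encodes the receptor that binds SP with the highest affinity, whereas neurokinin B prefers the product of Tacr3. The cell bodies of the sensory neurons that supply the bladder lie in dorsal root ganglia, outside the organ.

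The 10 arrays came from wild type C57BL/6J mice (WT) and from mice with a disrupted F2r gene, which encodes the thrombin receptor PAR1 (PAR1-/-). In each genotype 1 array was from bladders taken 24 h after saline. The other arrays were from bladders taken 4 h and 24 h after instillation of bacterial lipopolysaccharide (LPS, 100 µg per ml) or of SP itself. The sample labels give SP at 10 µM on the WT arrays and at 20 µM on the PAR1-/- arrays, while the methods give 10 µM for both. Every condition was thus 1 array, with no saline array at 4 h, and a ratio between arrays has no replicate check.

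Arrays differed in brightness. Total intensity was between 69562 and 73668 on both saline arrays and the WT SP array of 24 h, and between 115365 and 277147 on the other 7. The background threshold of an array lay 3 SD above the mode of its intensities. Between 26.3% and 43.8% of the probes exceeded it on 9 arrays and 11.9% on the WT LPS array of 24 h, where 4176 probes had the same intensity of 15. The targeted gene F2r did not check the genotype labels, as its probe was above background on 1 WT array and on 3 PAR1-/- arrays, and whether it lies in the disrupted region is unknown here. WT and PAR1-/- therefore stand below for arrays labelled so. Of the 6 smooth muscle markers, Acta2 and Smtn were above background on all 10 arrays, Myh11 and Tagln on 6, Cnn1 on 5 and Actg2 on 4. Of the 4 urothelial markers, Cdh1 was above background on 9 arrays, Krt19 on 8, the uroplakin gene Upk2 on 4 and Krt18 on 2.

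Tac1, the SP precursor gene, was not detected. On the WT arrays its intensity was 10 after saline, 16 after LPS and 13 after SP at 4 h, and 15 after LPS and 10 after SP at 24 h. On the PAR1-/- arrays it was 9 after saline, 14 and 23 at 4 h, and 17 and 15 at 24 h, in the same order. All 10 values lay under the threshold of their array, with the PAR1-/- array of LPS at 24 h closest at 17 against 17.2. Of all 4829 probes, 1715 (35.5%) were likewise under background on every array. With both sides under background no ratio was formed for Tac1.

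Tac2, the neurokinin B precursor gene, was low after saline and high after every challenge. On the WT arrays its intensity was 12 after saline, 224 after LPS and 249 after SP at 4 h, and 66 after LPS and 33 after SP at 24 h. On the PAR1-/- arrays it was 16 after saline, 204 and 448 at 4 h, and 247 and 175 at 24 h. The 8 challenged arrays all exceeded both saline arrays, and 9 arrays were above background. The exception was the WT saline array, with 12 against a threshold of 13.0, so that ratios to it are lower bounds. In such whole tissue, a change in the number of cells of a type and a change in RNA per cell cannot be told apart.

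Tacr1, the SP receptor gene, exceeded background on 1 array. On the WT arrays its intensity was 9 after saline, 14 after LPS and 70 after SP at 4 h, and 15 after LPS and 7 after SP at 24 h. On the PAR1-/- arrays it lay between 9 and 11 throughout. The single detected value, 70 on the WT SP array of 4 h, was 3.11 times the threshold, and the PAR1-/- array of SP at 4 h had 10. On that WT array 114 probes were above background that were under it on the other 9, and 7 of them were brighter than Tacr1. Tacr2, the receptor that prefers neurokinin A, ranged from 7 to 15 and was under background on all 10 arrays.

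**Figure D1:**
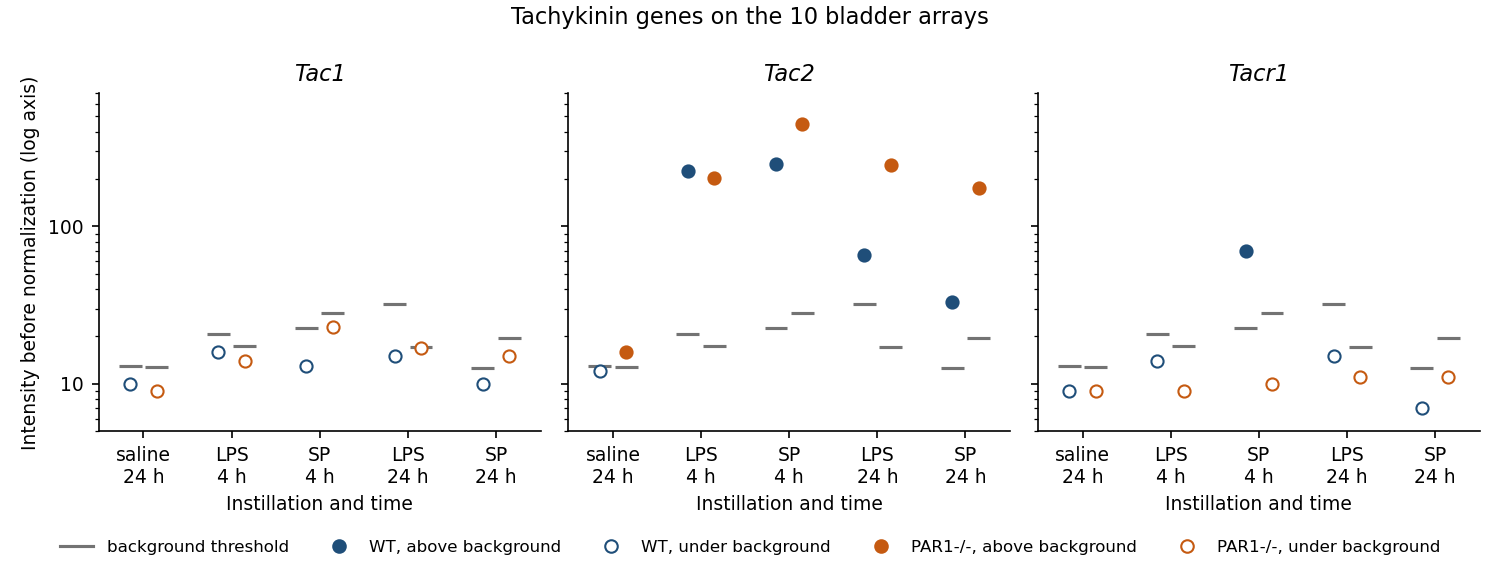
Intensity of Tac1, Tac2 and Tacr1 on each array before normalization (log axis), by instillation and time, with 1 point per array and a grey bar for the background threshold of that array. Filled points are above background: none of 10 for Tac1, 9 for Tac2 and 1 for Tacr1.

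For Tac1 and Tac2, the ligand genes of which 1 was undetected and 1 moved with challenge, the 250 bases before the annotated start are shown (RefSeq, GRCm38.p6, plus strand, 5′ to 3′). The windows are chr6:7554811-7555060 for Tac1 and chr10:127724228-127724477 for Tac2. Capitals mark matches to the motifs searched on both strands.
Tac1: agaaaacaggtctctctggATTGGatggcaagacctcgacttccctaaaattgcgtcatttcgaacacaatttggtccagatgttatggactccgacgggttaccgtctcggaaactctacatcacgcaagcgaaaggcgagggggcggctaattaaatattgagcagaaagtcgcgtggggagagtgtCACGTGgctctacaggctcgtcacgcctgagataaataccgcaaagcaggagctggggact
Tac2: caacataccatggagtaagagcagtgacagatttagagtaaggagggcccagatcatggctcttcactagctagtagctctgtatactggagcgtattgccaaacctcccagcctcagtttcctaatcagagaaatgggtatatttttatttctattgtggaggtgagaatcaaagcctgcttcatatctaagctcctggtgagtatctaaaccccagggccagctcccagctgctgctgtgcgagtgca
The Tac1 window held an E-box (CACGTG) at -61 to -56 and a CCAAT box, read as ATTGG, at -231 to -227, counted from the start. Of 32851 promoter windows of this length 6.02% held the E-box and 33.8% held CCAAT. The Tac2 window and that of Tacr1 held neither, and none of the 3 windows held an AP-1 site (TGANTCA, in 6.75% of windows), a cAMP response element (TGACGTCA, 1.55%), a TATA box (TATAAA, 12.4%) or a kappaB site by its consensus (3.9%). No match says only that these letters are absent from these windows.

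To ask how far each challenge moved the genes, every challenged array was set against the saline array of its genotype after regression normalization. It adjusts the log2 intensities of an array for brightness and divides them by a fitted slope, from 0.815 to 1.16 over the arrays. Normalized ratios are thus not intensity ratios adjusted for brightness alone. Values under background were raised to the threshold, and more than 3-fold was taken as the criterion. In WT bladders Tac2 was at least 9.31-fold higher 4 h after LPS, where 5.74% of the probes were past 3-fold higher, and at least 5.37-fold higher 4 h after SP, where 5.24% were. At 24 h it was at least 3.2-fold higher after LPS (1.6% of probes) and at least 3.02-fold higher after SP (0.919%). The WT bounds were thus close to the criterion at 24 h and well above it at 4 h.

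In PAR1-/- bladders, whose saline array was above background, Tac2 was 4.9-fold higher 4 h after LPS (1.74% of probes past 3-fold higher) and 4.96-fold higher 4 h after SP (1.23%). At 24 h the ratio was 5.56 after LPS (1.31%) and 3.92 after SP (1.42%). Tac2 ranked between 4th and 12th highest of 1631 to 1761 probes in these 4 comparisons and between 10th and 19th of 815 to 2162 in the WT comparisons. The 4 comparisons of a genotype share its saline array.

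Of 766 probes with a ratio or bound in all 8 comparisons, Tac2 was the 1 probe past 3-fold higher in each. The next were Laptm4a and an unnamed probe, in 6 comparisons each. Of the 8 Tac2 values, the lower WT bounds at 24 h did not hold under other scalings: with the medians of the arrays set equal they were 2.49 after LPS and 2.39 after SP. The WT array of SP at 24 h was about as bright as the WT saline array, with a median intensity ratio of 1 over all probes, and there the Tac2 intensities without normalization were 33 and 12, a ratio of 2.75.

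**Figure D2:**
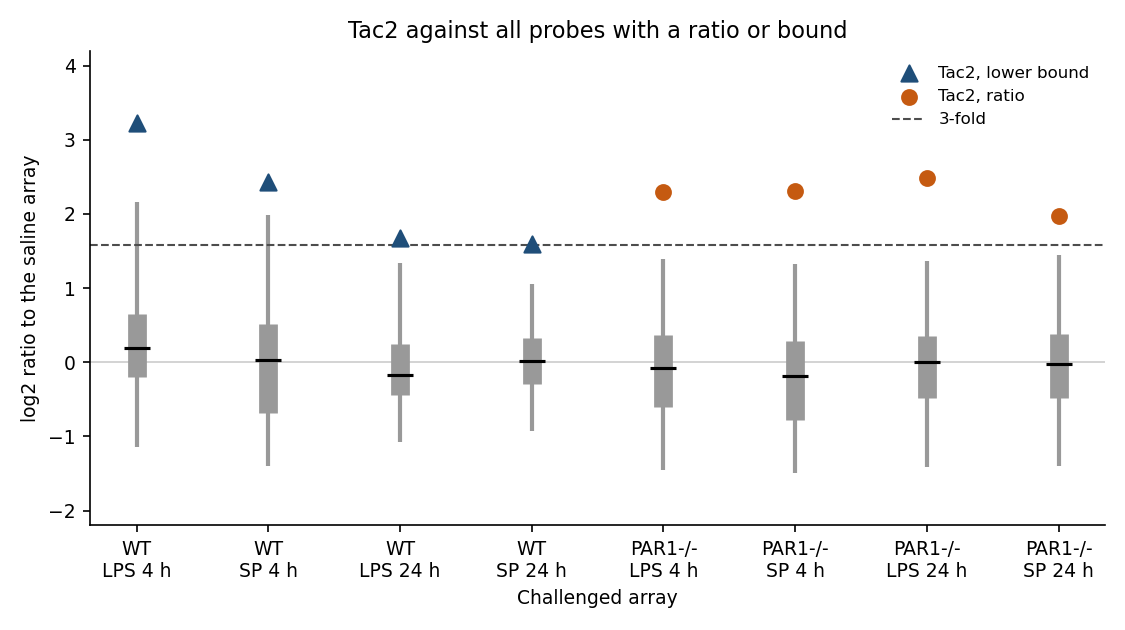
Log2 ratio of each challenged array to the saline array of its genotype, for Tac2 (triangles are lower bounds, circles are ratios) and for all probes with a ratio or bound (black line, median; thick bar, 25th to 75th percentile; thin bar, the central 95%). Tac2 lies above the central 95% of probes in all 8 comparisons, from 1.59 to 3.22, and on or above the dashed line at 3-fold.

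For Tacr1 the ratio to saline could be bounded in 1 comparison. On the WT SP array of 4 h it was at least 1.75-fold higher and did not pass 3-fold, with rank 286 of 1641 probes. Without normalization the bound was 5.37, where the median intensity ratio of all probes was 1.9. The Tacr1 value therefore passed or missed the criterion according to how the brightness of that array was treated.

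Across arrays, limma asked whether Tac2 differed between the 8 challenged and the 2 saline arrays, with genotype as a term. Normalized Tac2 levels after saline were 20 (WT) and 31.7 (PAR1-/-). After challenge they were 206 and 119 at 4 h and 70.6 and 66.6 at 24 h in WT, for LPS and SP in turn, and 155, 157, 176 and 124 in PAR1-/-. The lowest challenged level, 66.6, was thus above the highest saline level, and this held within 24 h, the time of the saline arrays. The log2 difference was 2.32 (SE 0.39), a 4.99-fold rise, with an adjusted p of 0.046 from limma with Benjamini-Hochberg adjustment over 1954 probes.

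Tac2 had the smallest p of these probes and was the only 1 called (0.0512% of probes), while 155 had an unadjusted p under 0.05. The median log2 difference of all probes was -0.04. Next by p stood Adcy6, an adenylyl cyclase gene, with 1.63 (SE 0.33) and an adjusted limma p of 0.15. An exact two-sided permutation test of the saline labels gave p = 0.0222 for Tac2, the smallest that 45 arrangements allow.

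The call rested on few arrays. Leaving out any 1 array kept the log2 difference between 2.16 and 2.42, but the adjusted limma p rose to 0.68 without the WT saline array and to 0.92 without the PAR1-/- saline array. It was 0.12 without the PAR1-/- array of LPS at 4 h, 0.11 without that of LPS at 24 h, 0.12 without that of SP at 4 h, 0.071 without that of SP at 24 h and 0.071 without the WT SP array of 4 h. It stayed under the threshold without the WT arrays of LPS at 4 h (0.015), LPS at 24 h (0.032) and SP at 24 h (0.036). With the medians of the arrays set equal in place of the regression, the difference was 2.05, the adjusted limma p 0.12 and no probe was called.

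Tac2 also moved with the brightness of the arrays, of which both saline arrays were among the 3 dimmest. Over the 10 arrays its normalized log2 level had a Pearson r of 0.81 and a Spearman rho of 0.76 with the log2 total intensity. The median r of the tested probes was 0.07, and 18 of 1954 (0.921%), Tac2 included, had an r at least that of Tac2. Over the 8 challenged arrays alone the Pearson r was 0.64 and the Spearman rho 0.55, with a median r of 0.12 for the tested probes. These are descriptions, as brightness and challenge cannot be told apart on 7 of the 8 challenged arrays. The other, the WT SP array of 24 h, gave the intensity ratio of 2.75 at like brightness.

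**Figure D3:**
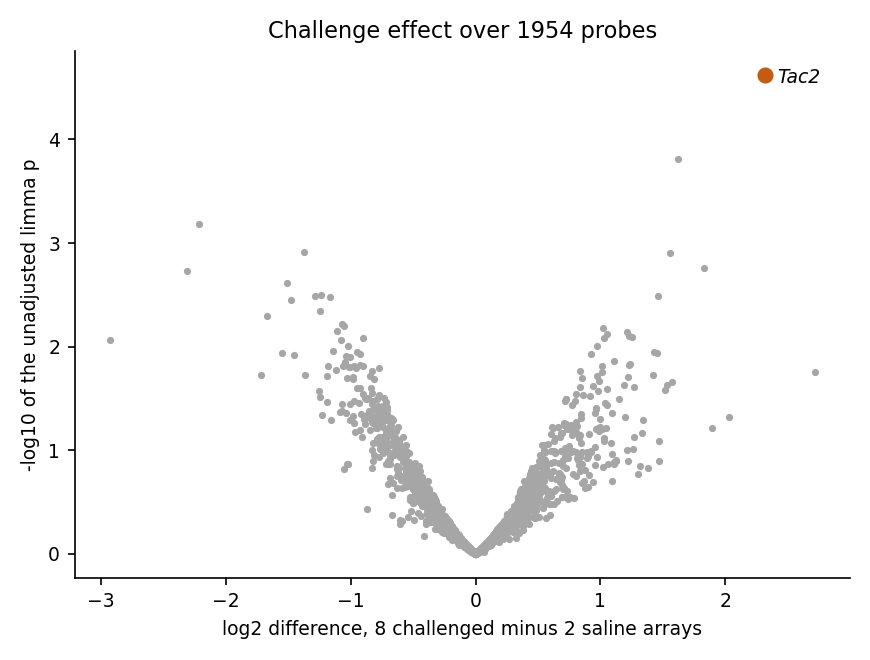
Log2 difference of the 8 challenged from the 2 saline arrays (x axis) against -log10 of the unadjusted limma p (y axis), with 1 point for each of 1954 probes. Tac2, in orange, stands highest, at a log2 difference of 2.32.

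Whether loss of PAR1 changed Tac2 was asked over the 5 conditions of agent and time that both genotypes share. By the labels the SP pairs also differ in dose, 10 µM in WT and 20 µM in PAR1-/-, which cannot be told apart from genotype there. The log2 difference of PAR1-/- from WT was 0.67 after saline, -0.41 after LPS and 0.41 after SP at 4 h, and 1.32 after LPS and 0.90 after SP at 24 h. Tac2 was thus higher in PAR1-/- in 4 of 5 pairs and lower in that of LPS at 4 h. The mean difference was 0.58 (SE 0.32), with an adjusted p of 0.57 from limma, which called 2 of 1954 probes (0.102%). It was 0.53 without the SP arrays and 0.39 to 0.82 with 1 pair left out. The lowest was without the pair of LPS at 24 h, whose WT array had 11.9% of probes above background. The exact sign-flip permutation test over the 5 pairs gave p = 0.125, where 0.0625 is the smallest possible.

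The size of the challenge response did not differ detectably between genotypes either, with the SP doses of the labels again unlike. The response in PAR1-/- minus that in WT was -0.11 (SE 0.82) on the log2 scale, with an adjusted limma p of 1, and the sign turned with the scaling (0.84 without normalization). With an SE of 0.82, differences of over 2-fold in either direction were not resolved. For this term limma called 0 probes (0%), and 31 had an unadjusted p under 0.05.

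**Figure D4:**
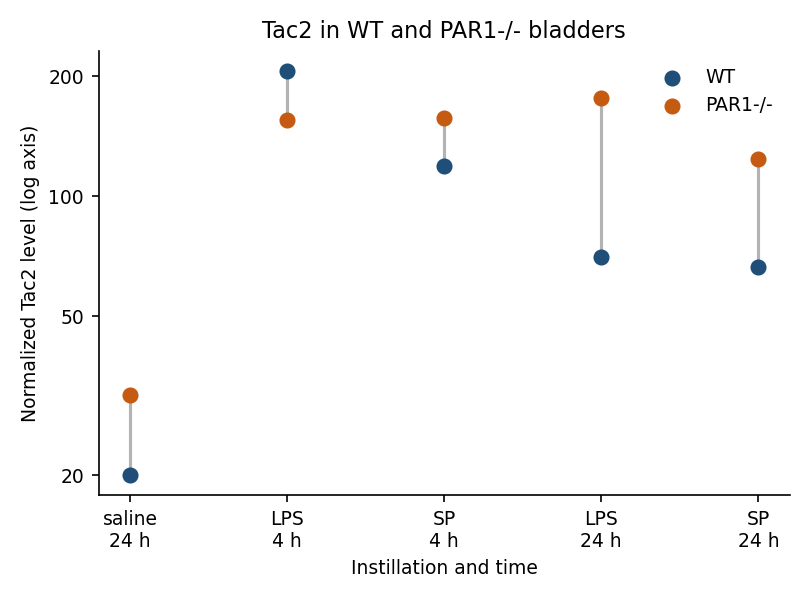
Normalized Tac2 level (log axis) in WT (blue) and PAR1-/- (orange) bladders under the 5 shared conditions, with 1 array per point and a grey line joining the arrays of a condition. By the labels the SP arrays differ in dose, 10 µM in WT and 20 µM in PAR1-/-. PAR1-/- is the higher in 4 of 5 conditions, with the widest gap after LPS at 24 h (176 against 70.6). On the WT array of that condition only 11.9% of probes exceeded background.

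Tac2 was not shown to differ by time or by stimulus. Levels at 4 h minus those at 24 h averaged 0.63 on the log2 scale (SE 0.43), with 3 of 4 pairs higher at 4 h, an adjusted limma p of 1 and an exact permutation p of 0.25. Limma called 13 probes for time (0.665%). SP minus LPS averaged -0.34 (SE 0.32), with an adjusted limma p of 1 and an exact permutation p of 0.25, where 0.125 is the smallest that 4 pairs allow. For stimulus limma called 0 probes (0%), with 56 at an unadjusted p under 0.05.

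As 1 measure of spread, the log2 differences between both saline arrays had an SD of 0.46, or 1.38-fold, over 1036 probes above background on both, which holds the genotype difference too. In the order of the Tac2 levels, the 6 highest arrays (206 to 119) stood within 0.46 of their neighbours. The step from the WT SP array of 4 h (119) to that of LPS at 24 h (70.6) was 0.75, that from the WT SP array of 24 h to PAR1-/- saline was 1.07, and that between the saline arrays was 0.67. The upper end of the order is thus not resolved at this spread.

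Tac1 and Tacr1 were under background on too many arrays to enter the limma tests. Exact permutation tests of their normalized levels gave p between 0.375 and 0.75 for Tac1 and between 0.375 and 1 for Tacr1 over the 4 effects of genotype, time, stimulus and challenge, on levels mostly under background. With Tac2 these made 12 permutation tests, of which 9 could not fall under 0.05 with so few pairs. Of the 3 that could, those of challenge, Tac2 gave 0.0222, Tac1 0.422 and Tacr1 0.511, before any adjustment over the 12.

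The array profiles most like that of Tac2, by Pearson's r of normalized log2 levels over 10 arrays among 1802 named probes, were those of Col6a1, Eya2 and Ap2a2. Col6a1 encodes a collagen VI chain and had r = 0.92. Eya2 encodes a transcription cofactor and had r = 0.91, and Ap2a2, a subunit of the clathrin adaptor AP-2, had r = 0.90. The median r of all these probes with Tac2 was 0.15. By Spearman's rho the 3 most alike were instead Foxn1 (0.95), Zbtb20 (0.93) and Yme1l1 (0.90). The leading genes thus depended on the measure of likeness.

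The enzymes that make and destroy tachykinins were followed by their own lists. Of 6 precursor processing genes with a probe, all exceeded background somewhere and 1 passed 3-fold. It was Cpe, which encodes carboxypeptidase E, with an intensity of 11 on the WT saline array and 122 after LPS at 4 h, at least 5.2-fold higher, in the comparison where 5.74% of all probes passed. Over all probes, 204 were past 3-fold higher in at least 1 comparison. On the other challenged arrays Cpe lay between 13 and 35 and gave no ratio. Limma tested 4 of the 6 and called 0, and called 0 of the 3 tested among 8 degradation genes, none of which passed 3-fold. Of all 1954 tested probes it called between 0% and 0.665% for each of the 5 effects.

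Downstream of the receptor, 10 genes of Gq and beta-arrestin signalling had intensities. Prkcb, a protein kinase C gene, was the 1 past 3-fold, with 117 on the WT saline array and 108 after LPS at 4 h, a normalized ratio of 0.331, and 0.925% of probes were past 3-fold lower there. In PAR1-/- its ratios lay between 0.623 and 0.806. Limma called 0 of the 4 tested. None of 15 sensory neuropeptide and receptor genes passed 3-fold in any comparison, and limma called 0 of 9. None of 6 neurotrophin and nociceptor genes passed it either, and limma tested 1 and called 0. Over all 4829 probes, 204 were past 3-fold higher in at least 1 comparison, so none in lists this short says little. Limma called between 0% and 0.665% of all tested probes per effect, so its counts of 0 in these lists say little either.

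Of markers for the cells that could carry tachykinin transcripts, 7 of 12 neuron and axon genes were above background on some array. The share of all probes under background on every array, 35.5%, is the reference for each marker list. The summed normalized level of the 12 neuron and axon genes ran from 308 to 473 over the 10 arrays, with 423 and 424 after saline and 308 to 473 after challenge. Elavl4 alone gave 67 of a summed intensity of 195 on the PAR1-/- saline array and 688 of 982 on the WT SP array of 4 h. The lowest level, 308, was on the WT LPS array of 24 h, where only Elavl4 was above background. The sum therefore does not describe the list as a set. Snap25, Syp, Uchl1 and Nefl were under background on all 10. Gap43, a growth cone gene, had an intensity of 25 on the PAR1-/- saline array. Its 4 ratios there were 0.333 and 0.334 after LPS at 4 and 24 h, 0.314 after SP at 4 h and at most 0.328 after SP at 24 h, where 1.4%, 1.42%, 2.08% and 1.53% of all probes were past 3-fold lower. The values after SP passed 3-fold and those after LPS did not. Limma tested 3 of the neuron genes and called 0, where it called between 0% and 0.665% of all tested probes per effect.

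Of 9 mast cell markers 5 were above background on some array, and their summed level ran from 406 to 538 after saline and from 321 to 479 after challenge. Cpa3 alone gave 81 of a summed intensity of 174 on the PAR1-/- saline array and 700 of 880 on the PAR1-/- SP array of 4 h. Mcpt1, a mast cell protease gene, had an intensity of 22 on the PAR1-/- saline array. Its ratio there was at most 0.289 after SP at 4 h, past 3-fold lower as were 2.08% of all probes. The other bounds did not pass, at most 0.344 after LPS at 4 h and at most 0.376 and 0.384 at 24 h. The leukocyte markers, 7 of 10 above background somewhere, summed to between 211 and 240 after saline and between 127 and 215 after challenge. On a single array between 0 and 6 of the 10 were above background, so background makes up much of these sums. Without a floor, the median ratio of all probes to saline ran from 0.605 (PAR1-/- SP, 4 h) to 1.09 (WT LPS, 4 h). A change in leukocytes cannot be read from the sums. The 4 urothelial markers, all above background somewhere, lay between 83.1 and 92.2 after saline and between 67.4 and 134 after challenge. The 6 smooth muscle markers, all above background somewhere, summed to 323 and 603 after saline and to between 338 and 582 after challenge. Of these Acta2, a smooth muscle actin gene, had saline intensities of 23 in WT and 112 in PAR1-/-. In WT it was 4.1-fold higher 4 h after LPS (5.74% of all probes past 3-fold higher) and 3.74-fold higher at 24 h (1.6%), with ratios of 0.875 and 2.15 after SP. In PAR1-/- it was at 0.343 and 0.296 of saline after LPS at 4 and 24 h, and at 0.0403 and 0.317 after SP. All but the first passed 3-fold lower, as did 1.42%, 2.08% and 1.53% of all probes in turn. The ratios of a genotype share its 1 saline array, and those arrays differed for Acta2 as given. Limma called 0 of the 6 smooth muscle genes, and between 0% and 0.665% of all tested probes per effect. The part of cell composition in the Tac2 level was not tested.

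Single probes carry each gene here. Of tested probes, 5 pairs share a gene name, and their median r over the 10 arrays was -0.11, compared with 0.23 for all pairs and no tachykinin gene had a second probe to check its name. The Tac2 value was not shared by probes of adjoining names on the array: Epha8 lay between 9 and 15 and Ube2e3 between 10 and 74. Beside Tacr1, Ephx2 reached 106 on the WT SP array of 4 h, the array on which Tacr1 was detected. Ephx2 was above background on 7 arrays and reached 107 on another array, where Tacr1 was under background. Whether signal spread between these spots was not tested.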

How the data were processed

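Spots were quantified by the authors with AtlasImage. The values they deposited are scores: the log2 of each is the standard score of a spot over the 10 arrays of its probe, divided by 3, as read from the values alone. Spot intensities are whole numbers, so the smallest whole numbers up to 3000 giving a probe's 10 scores were recovered where under 0.01 chance matches were expected: 4829 of 5030 probes, 201 not used. On 2000 simulated probes, drawn from the recovered ones, 100% were recovered correctly up to a common factor, which checks the search alone. After their values were moved off whole numbers, 1.05% still gave whole numbers. Levels assume a common factor of 1, and so do normalized ratios and bounds, through the regression and the threshold. Ratios of intensities do not depend on it.

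The threshold was 3 SD above the mode of an array. Normalization was robust regression (MASS 7.3.60.0.1, R 4.3.3) of log2 intensity on the mean of 10 arrays over 507 probes. The intercept was subtracted and the result divided by the slope. Ratios were called past 3-fold. Limma 3.58.1 tested 1954 probes above background on at least 4 arrays. In a simulation 200 of 1954 probes were given a log2 difference of 2, with noise from the residuals of the genotype fit, which blocks condition. Of these 86% were called for challenge, 93% for genotype, 88.5% for time, 89.5% for stimulus and 12.5% for the interaction. This noise leaves out the spread between conditions, and many changed probes ease the adjustment. The shares can therefore be too high for these data. Alternatives covered normalization, threshold, floor, filter, fold, reference and arrays left out.

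Probes were named by the array's annotation (4633 with 1 gene, 5 with several, 392 with none), and 4624 Entrez IDs were in the RefSeq table. All member probes are named. From each gene list, genes past 3-fold or an adjusted p of 0.05 are named, at most 4 a list, with the 3 probes most like Tac2. Genes outside this rule were chosen after their values were seen. They are F2r, Tacr2, Adcy6, Laptm4a, Upk2, Smtn and the other muscle and urothelial markers. Undetected neuron markers, genes alike by rho and adjoining probes were chosen so too. Members and lists were chosen with earlier results of these data known.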

Additional observations from a re-analysis of the deposited data

How the results depend on the processing

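Each array was 1 pool, so p-values measure only the spread between arrays of different conditions. No pairing by animal was possible because every array held mice of its own, and the pairs in the tests match arrays by genotype or condition only. The deposited scores ordered the arrays as the recovered intensities did for all 3 genes.

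For Tac2 against saline, the WT bound after LPS at 24 h fell to 2.49 with equal medians and 2.67 against the mean of both saline arrays, and that after SP at 24 h to 2.53 without normalization, 2.39 with equal medians and 2.52 against both saline arrays. The other 6 Tac2 ratios stayed past 3-fold under 7 alternatives, the lowest at 3.5. Of these alternatives, the 2-fold criterion could not change a ratio. Leaving out the floor could not change those of PAR1-/-, where Tac2 was above background throughout. The Tacr1 bound after SP at 4 h was 5.37 without normalization and 1.18 at the lowest. The cause was not tested.

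The challenge effect on Tac2 was 2.05 (adjusted limma p 0.12) with equal medians, an alternative chosen after seeing the data, as was leaving out each array in the tests of challenge, interaction, time and stimulus. It was 3.55 (0.026) without normalization, 2.42 (0.013) with quantile normalization, 2.25 (0.012) with a floor and 2.32 (0.016) without a filter. With 1 array left out it was 2.16 to 2.42, with adjusted p from 0.015 to 0.92, the highest without the PAR1-/- saline array. The interaction, -0.11, became 0.84 without normalization, 0.03 with a floor and 0.12 with equal medians, and ran from -0.32 to 0.22 with 1 array left out, turning positive without the WT array of LPS at 4 h. Genotype, time and stimulus effects kept their sign and stayed above the threshold, from 0.39 to 1.09, 0.33 to 1.44 and -0.46 to -0.05.

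Probes called by limma ranged over the alternatives from 0 to 33 for genotype (2 as reported), 0 to 30 for time (13), 0 to 17 for stimulus (0), 0 to 4 for challenge (1) and 0 to 2 for the interaction (0). Over the 8 comparisons, 66.6% of the calls past 3-fold were higher, 335 against 168 lower. The share was 99.8% without normalization (4349 against 9), 28.7% with equal medians (221 against 550), 47.6% without a floor (495 against 545) and 56.3% at 2-fold (1095 against 851). Tac1 and most Tacr1 values lay under background, where no ratio could be formed.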
